A study of Mus musculus with 20 samples.

Results

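The K2P genes encode potassium channel subunits that each carry a pair of pore domains. The 10 genes described here were Kcnk1, Kcnk2, Kcnk3, Kcnk4, Kcnk5, Kcnk9, Kcnk10, Kcnk12, Kcnk13 and Kcnk18, chosen by symbol and matched to the Ensembl identifiers of the expression table, which listed 37620 genes. All 10 had reads, and 8 reached the level required for testing. The question was how these channels differed between lumbar and sacral dorsal root ganglia (DRG) before birth, and between the sexes.

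RNA was sequenced from whole DRG of C57Bl/6 mice at E18.5, shortly before birth. These ganglia hold the cell bodies of sensory neurons together with satellite glia and Schwann cells. The labels name no genetic change and no treatment. Lumbar ganglia were those at L4-5 and sacral ganglia those at L6-S1, as the study names them, and each level was taken from 5 males and 5 females, which gave 4 groups of 5 libraries. Each of the 10 embryos (males M1, M3, M5, M7 and M8, females F3, F7, F8, F9 and F10) gave both a lumbar and a sacral library, so that level was compared within the embryo. Levels are given as log2 RPKM, the log2 of reads per kilobase of exon on the deposited scale. On that scale every library has the same median (0.930), so it does not follow read totals alone. A difference of 1 is a doubling.

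K2P subunits assemble as dimers and pass a potassium current that is open at rest. This background current draws the membrane potential towards the potassium equilibrium potential and sets how much input a neuron needs before it fires. The subfamilies are told apart by what gates them: TREK channels respond to stretch, heat and lipids, TASK channels close in acid, TALK channels open in alkaline medium, THIK channels are inhibited by halothane, and TRESK is activated through the calcium-dependent phosphatase calcineurin. Sensory neurons of the DRG are known for several of them, TRESK and the TREK group above all.

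In these ganglia, Kcnk9 was lower in sacral than in lumbar DRG in every embryo, though its values were nearly equal in F8. Its mean difference was larger than that of any other K2P gene tested. Kcnk2 and Kcnk3 were moderately upregulated in sacral DRG. Kcnk18 was the most abundant member at both levels. No member was called different between males and females.

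Depth ran from 19606265 to 39678967 reads per library, and the mitochondrial ribosomal RNA genes took 17.8% to 61.1% of them. That share was over 43% in both libraries of M5 and of F7 and in the lumbar library of F8. All 12 pan-neuronal genes examined were expressed at a level that could be tested. So were all 10 genes of Schwann cells and satellite glia and all 10 of nociceptors and thermoreceptors. Genes of other tissue reached it too: 6 of 6 of fibroblasts and meninges, 5 of 6 of endothelium and 6 of 7 of skeletal muscle. The same held for 5 of 6 of pericytes and smooth muscle, 3 of 6 of macrophages and 3 of 6 of cartilage. It was reached by 1 of 6 listed autonomic neuron genes, 5 of which were in the expression table, and 0 of 5 spinal cord genes. The summed level of the 12 pan-neuronal genes was lower in the sacral library in 9 of 10 donors, with ranges of 805 to 1710 RPKM in lumbar and 414 to 1482 RPKM in sacral libraries. F8 was the donor in which it was higher (873 RPKM lumbar, 1029 RPKM sacral), and the lowest value was that of the sacral library of F7. In whole ganglia, fewer cells of a type and less RNA per cell cannot be told apart.

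The members lie on 8 chromosomes, and reads of 1 member could not be shared with a neighbour on the other strand, because none shared exon bases with another annotated gene. In mm9 coordinates, Kcnk9 spans 72342549 to 72376709 on chromosome 15 (minus strand), Kcnk2 spans 191031816 to 191167711 on chromosome 1 (minus strand), Kcnk3 spans 30890543 to 30927643 on chromosome 5 (plus strand) and Kcnk18 spans 59294138 to 59311860 on chromosome 19 (plus strand). All 4 are protein coding. The annotated exons of Kcnk9 total 1209 bases, of which 1206 are coding, so its value comes from reads over the coding sequence alone. Kcnk3 has 3810 exon bases, of which 1227 are coding.

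Kcnk2 is the 1 of the 3 called members for which promoter sequence was at hand, and RefSeq lists 4 transcription starts for it. The 250 bases before the most distant start and before a GC-rich one are shown so that these starts can be compared. Whether the single gene value takes in transcripts from all 4 starts was not checked. Coordinates are of build GRCm38.p6, not of the mm9 build of the expression values, and both windows are on the minus strand, written 5′ to 3′ in gene direction. Capitals mark matches, on either strand, to the GC box (letters GGGCGG), the CAAT box (letters CCAAT) and the TATA box (letters TATAAA).
Kcnk2, distant start, chr1:189402274-189402523: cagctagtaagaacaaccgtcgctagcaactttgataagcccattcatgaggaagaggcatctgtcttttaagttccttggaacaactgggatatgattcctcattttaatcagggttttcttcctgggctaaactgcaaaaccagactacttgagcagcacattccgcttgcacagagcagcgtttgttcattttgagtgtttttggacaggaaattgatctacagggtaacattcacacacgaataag
Kcnk2, GC-rich start, chr1:189343708-189343957: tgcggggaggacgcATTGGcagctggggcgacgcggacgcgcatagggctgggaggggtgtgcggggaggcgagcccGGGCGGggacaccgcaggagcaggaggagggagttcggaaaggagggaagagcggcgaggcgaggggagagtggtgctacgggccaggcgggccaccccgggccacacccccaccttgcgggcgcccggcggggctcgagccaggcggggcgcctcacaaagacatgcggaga
The distant window held 42.4% G and C with 5 CpG dinucleotides and none of the 3 motifs. The GC-rich window held 74.4% G and C with 27 CpG dinucleotides, 1 GC box and 1 CAAT box match. Another GC-rich start, not shown, had 70.4% G and C with 28 CpG dinucleotides and none of the 3 motifs. The remaining start, with 53.2% G and C, had none either. Of 32851 RefSeq windows of this length, 32.7% held a GC box, 33.9% a CAAT box and 12.4% a TATA box match on either strand, and the median window had 52.4% G and C. The motifs do not overlap one another. Which of the starts was used in these ganglia cannot be read from a value summed over the gene. Kcnk18, Kcnk1, Kcnk4, Kcnk5, Kcnk10, Kcnk12 and Kcnk13 also had an entry, and Kcnk3 and Kcnk9 were the 2 without one.

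The order of the members was led by Kcnk18, which encodes TRESK. Its level was 3.30 ± 0.69 log2 RPKM (mean ± SD over 20 libraries), a median of 11.2 RPKM, above 88.4% of all genes with a value. Kcnk2 (TREK subfamily, 1.69 ± 0.45) and Kcnk10 (TREK subfamily, 1.60 ± 0.61) came next, followed by Kcnk3 (TASK subfamily, 0.78 ± 0.71), Kcnk1 (TWIK subfamily, 0.56 ± 0.59), Kcnk5 (TALK subfamily, 0.44 ± 0.30) and Kcnk4 (TREK subfamily, −0.35 ± 0.86). Kcnk9 (TASK subfamily, −1.45 ± 2.14), Kcnk12 (THIK subfamily, −1.89 ± 1.33) and Kcnk13 (THIK subfamily, −3.32 ± 1.42) were the lowest over the 20 libraries. Kcnk9 had the widest spread of the 10, and its place depended on the level: its mean was 0.33 ± 1.06 in lumbar libraries, beside Kcnk3 (0.38 ± 0.53) and Kcnk5 (0.37 ± 0.17) and above Kcnk4 (−0.12 ± 0.66), and −3.23 ± 1.22 in sacral libraries, where only Kcnk13 (−3.86 ± 1.54) had a lower mean.

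Neighbours in this order were compared within donors, as the mean over the 2 libraries of each embryo, by an exact sign-flip permutation test (two-sided, unadjusted, 9 pairs compared). The order comes from the same 20 libraries, so the choice of pairs and the sign of each mean difference were fixed by it beforehand. The p-values therefore describe how far the donors agreed and are no support for the order. Kcnk18 exceeded Kcnk2 by 1.61 ± 0.51 (SD, n = 10 donors, higher in 10 of 10, exact p = 0.00195, the smallest that 10 donors allow), and Kcnk10 exceeded Kcnk3 by 0.82 ± 0.27 in 10 of 10. Of the 9 neighbouring pairs, 4 did not differ beyond their spread. They were Kcnk2 and Kcnk10 (0.09 ± 0.43, exact p = 0.646), Kcnk3 and Kcnk1 (0.22 ± 0.45, exact p = 0.143), Kcnk1 and Kcnk5 (0.12 ± 0.27, exact p = 0.182), and Kcnk9 and Kcnk12 (0.44 ± 0.82, exact p = 0.129). These tests average the levels, and the means of all 4 pairs stood in opposite order in lumbar and sacral libraries, given here as a description. Kcnk9 exceeded Kcnk12 in 10 of 10 lumbar libraries and was below it in 9 of 10 sacral ones. Kcnk3 was below Kcnk1 in 7 of 10 lumbar libraries and above it in 8 of 10 sacral ones, and Kcnk2 was below Kcnk10 in 7 of 10 and above it in 7 of 10. Kcnk1 exceeded Kcnk5 in 8 of 10 lumbar and 4 of 10 sacral libraries. Kcnk4, which exceeded Kcnk9 over both levels, did so in 10 of 10 sacral but 3 of 10 lumbar libraries.

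**Figure D1:**
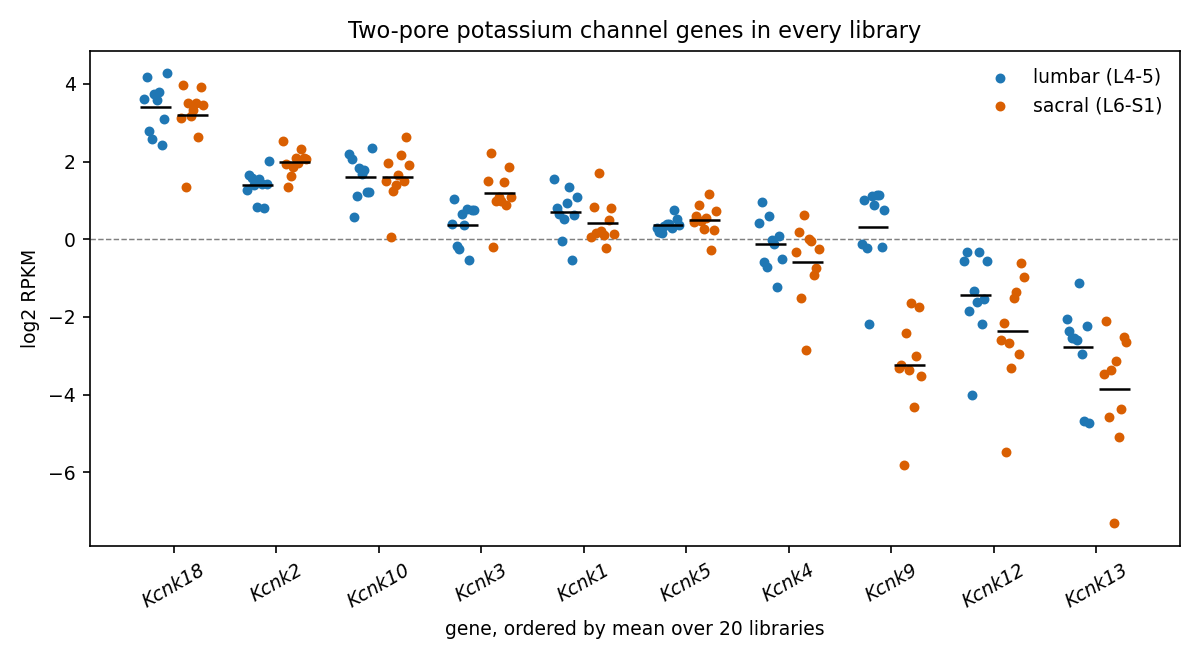
Level of each of the 10 genes (log2 RPKM, vertical axis) in every lumbar (blue) and sacral (orange) library, with black bars for the mean of 10 libraries and genes ordered by their mean over 20. Kcnk18 is highest and Kcnk13 lowest, and Kcnk9 is the gene whose blue and orange points are farthest apart.

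Summed over the 10 members, the K2P signal was 14.9 to 36.6 RPKM in lumbar libraries (median 26.6) and 10.4 to 33.8 RPKM in sacral libraries (median 24.6), and it was higher in the sacral library in 3 of 10 donors. Kcnk18 made up a median of 44.6% of the lumbar and 42.7% of the sacral sum. The share of Kcnk9 was a median of 5.36% in lumbar and 0.455% in sacral libraries, whereas the shares of Kcnk2 (11.1% and 17.3%) and Kcnk3 (5.45% and 9.98%) were larger in sacral libraries.

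Differential expression between levels was tested with limma over 14529 genes, with donor as a block. Of these genes 6.73% were called at an adjusted p of at most 0.05 (Benjamini-Hochberg over all genes), 2.7% higher and 4.03% lower in sacral DRG. Among the 8 members tested, 2 were called higher and 1 lower, and the median difference of the 8 was −0.11 log2 beside −0.05 over all genes tested. Kcnk9 entered the test through its lumbar males alone (mean 0.74 log2 RPKM). On the log2 scale the means of its lumbar females (−0.09) and of both sacral groups were below 1 RPKM. Kcnk4 entered through its lumbar females alone (mean 0.13 log2 RPKM, lumbar males −0.36).

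The TASK subfamily held the largest difference. Kcnk9 encodes an acid-sensitive background channel that can pair with the Kcnk3 product. In lumbar males its level was 0.89 (M1), 1.13 (M3), 1.15 (M5), −0.205 (M7) and 0.75 (M8) log2 RPKM, and in sacral males −1.65, −4.31, −3.00, −1.73 and −3.51 in the same order. In lumbar females it was 1.0 (F3), −0.23 (F7), −2.19 (F8), 1.12 (F9) and −0.13 (F10), and in sacral females −3.23, −5.80, −2.41, −3.36 and −3.32. Of the 10 lumbar values, 9 lay above every sacral value. The exception was the lumbar library of F8, where Kcnk9 was lower than in 2 sacral male libraries, and the groups therefore overlapped. In all tested genes, 0.138% showed no overlap of the 10 lumbar and the 10 sacral values, and 2.85% moved the same way in 10 of 10 donors.

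Kcnk9 was lower in sacral DRG by a log2 difference of −3.56 ± 0.50 (SE, limma adjusted p = 2.72e-04, 95% interval −4.59 to −2.53), in 10 of 10 donors. It had entered that fit through a lumbar group, where it was high, so the filter was not independent of the difference. In the fit of all genes without the filter on low values, the difference was −3.56 (limma adjusted p = 1.77e-04). Over the sacral libraries this rests on few reads, 0 to 12 per library and 47 in all, against 11 to 92 per lumbar library and 525 in all. On the pooled reads and the deposited scale, Kcnk9 was 10.4-fold higher in lumbar DRG (exact Clopper-Pearson 95% interval 7.69 to 14.3, counting error only). The value of the sacral library of F7 stands for 0 reads, set to 0.5 reads, and a count of 0 allows up to 3. The smallest donor difference was −0.22, in F8, on 11 lumbar and 6 sacral reads, so this embryo showed little or no change. Without F8 the difference was −3.97 (limma adjusted p = 2.66e-05), and without F7 it was −3.31 (limma adjusted p = 8.12e-04).

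The difference in Kcnk9 was close to the same size in both sexes. It was −3.58 in males (limma adjusted p = 0.0186) and −3.54 in females (limma adjusted p = 0.0185), and the interaction of level and sex was 0.04 ± 0.99 (SE, limma adjusted p = 0.996), an error too wide to show that the sexes acted alike.

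Kcnk3, the other TASK gene tested, encodes an acid-sensitive channel and went the other way. In lumbar males it was 0.36 (M1), 0.77 (M3), −0.54 (M5), 0.76 (M7) and 0.74 (M8) log2 RPKM, and in sacral males 0.98, 1.48, 0.87, 1.87 and 1.09. In lumbar females it was 1.05 (F3), −0.18 (F7), −0.25 (F8), 0.66 (F9) and 0.40 (F10), and in sacral females 2.21, −0.21, 0.99, 1.08 and 1.49. Every male rose and 4 of 5 females did, while F7 had nearly equal values. Of the sacral values, 6 lay above all lumbar values, and the groups overlapped. Kcnk3 was upregulated in sacral DRG by 0.81 ± 0.20 (SE, limma adjusted p = 0.0212, 95% interval 0.39 to 1.22), a 1.75-fold difference, in 9 of 10 donors. Over all genes, 12.1% moved the same way in at least 9 of 10 donors. The read totals were 1606 in lumbar and 2765 in sacral libraries. The call was lost in the fit without the donor block (limma adjusted p = 0.139), without the filter on low values (0.0621), and on leaving out F10 (0.064) or M5 (0.0651).

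**Figure D2:**
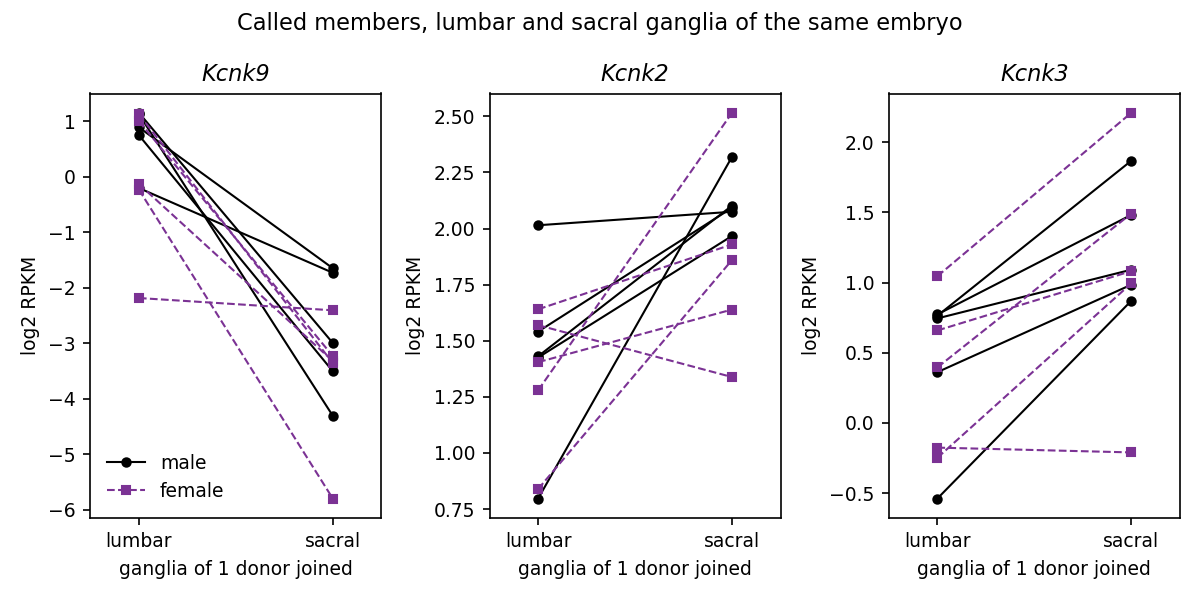
Lumbar and sacral level (log2 RPKM, vertical axes differ) of the 3 called members, with a line for each embryo (solid black males, dashed purple females). Kcnk9 falls in all 10 embryos, least in F8, and Kcnk2 and Kcnk3 rise in all but F7.

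Because Kcnk3 and Kcnk9 products can share a channel, their balance was computed in each library as the Kcnk3 minus the Kcnk9 log2 RPKM, a comparison per length of exon. In lumbar libraries it ran from −1.69 (M5) to 1.94 (F8) with a median of 0.02, and Kcnk3 was the higher in 5 of 10. In sacral libraries it ran from 2.64 (M1) to 5.79 (M3) with a median of 4.52, and Kcnk3 was the higher in 10 of 10. The lumbar and sacral ranges did not overlap. This difference combines those of both genes, which were called in opposite directions, and is given as a description. How many other gene pairs would show no overlap was not computed.

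**Figure D3:**
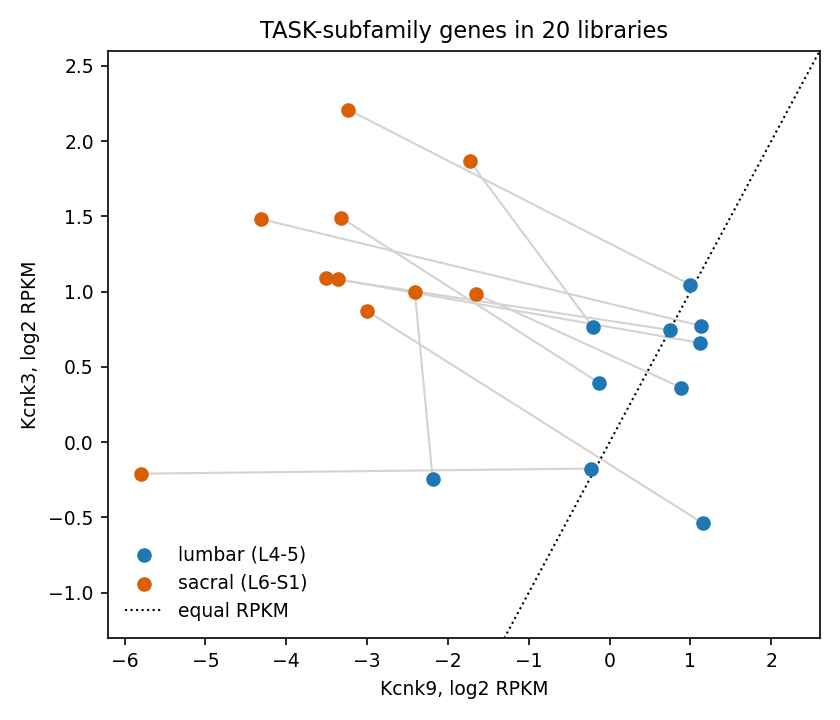
Level of Kcnk3 (vertical axis) against Kcnk9 (horizontal axis), both in log2 RPKM, in lumbar (blue) and sacral (orange) libraries, with grey lines joining the libraries of 1 embryo and a dotted line at equal RPKM. Lumbar points lie on both sides of the dotted line and sacral points all lie to its left, where Kcnk3 exceeds Kcnk9.

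In the TREK subfamily, 1 of 3 members was called. Kcnk2 encodes a channel opened by stretch, heat and arachidonic acid. In lumbar males its level was 1.54 (M1), 1.43 (M3), 0.80 (M5), 1.43 (M7) and 2.01 (M8) log2 RPKM, and in sacral males 2.09, 1.97, 2.32, 2.10 and 2.07. In lumbar females it was 1.64 (F3), 1.57 (F7), 1.4 (F8), 0.84 (F9) and 1.28 (F10), and in sacral females 1.93, 1.34, 1.64, 1.86 and 2.52. The sacral males lay close together, whereas the lumbar males were spread by the low value of M5 and the high value of M8. Kcnk2 was upregulated in sacral DRG by 0.59 ± 0.14 (SE, limma adjusted p = 0.0146, 95% interval 0.30 to 0.88), a 1.51-fold difference, in 9 of 10 donors, with 2975 lumbar and 4052 sacral reads. F7 was again the exception, at −0.23. The call was lost without the donor block (limma adjusted p = 0.0639), with donor as fixed terms (0.0517), and on leaving out F10 (0.0539) or M5 (0.0542).

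Kcnk10, which encodes the closest relative of the Kcnk2 channel, did not share the difference. Its level ran from 0.58 to 2.35 log2 RPKM in lumbar libraries (median 1.72) and from 0.05 to 2.62 in sacral libraries (median 1.57). The groups overlapped almost wholly, and the difference was −0.00 ± 0.19 (SE, limma adjusted p = 0.993). Its 95% interval, −0.40 to 0.39, lies below the estimate for Kcnk2, though the difference between these genes was not tested. The donor differences ran from −0.70 in F10 to 1.41 in M7. Kcnk4, which encodes the mechanosensitive channel TRAAK, ran from −1.23 to 0.96 in lumbar (median −0.08) and from −2.86 to 0.63 in sacral libraries (median −0.28). Its difference was −0.46 ± 0.33 (SE, limma adjusted p = 0.392, 95% interval −1.14 to 0.22), lower in 5 of 10 donors, and the lowest value, in the sacral library of F9, came with few reads (6 to 76 per sacral library). The size depended on single donors, at −0.15 without F9 (limma adjusted p = 0.783) and −0.75 without F8 (limma adjusted p = 0.104).

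Kcnk18, the most abundant member, encodes a channel known from sensory neurons and named in inherited migraine. It ran from 2.42 (M5) to 4.27 (M8) log2 RPKM in lumbar libraries (median 3.59) and from 1.35 (F7) to 3.96 (F3) in sacral libraries (median 3.39). It was lower in the sacral library in 7 of 10 donors, and M5, M7 and F8 had the higher sacral value. The difference was −0.21 ± 0.23 (SE, limma adjusted p = 0.609, 95% interval −0.69 to 0.28), so that a fall by more than 0.69 log2 lies outside the interval. It rests on 10789 lumbar and 8900 sacral reads, the most of any member. The donor differences ran from −1.43 in F7, whose sacral pan-neuronal sum was 414 RPKM, to 0.92 in F8, whose lumbar sum was 873 RPKM. The part of that sum in the result was not tested.

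Kcnk1 and Kcnk5 gave no call. Kcnk1 encodes the weakly conducting TWIK channel. It ran from −0.54 to 1.55 log2 RPKM in lumbar (median 0.72) and from −0.22 to 1.69 in sacral libraries (median 0.18), and differed by −0.26 ± 0.24 (SE, limma adjusted p = 0.526, 95% interval −0.77 to 0.24). The single high sacral value, 1.69, was that of F8, where Kcnk1 was higher by 1.73 than in the lumbar library. Kcnk5 encodes an alkaline-activated channel. It was the steadiest member in lumbar DRG, at 0.17 to 0.75 (median 0.35), and ran from −0.28 to 1.17 in sacral DRG (median 0.51). It differed by 0.14 ± 0.14 (SE, limma adjusted p = 0.574, 95% interval −0.16 to 0.44).

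**Figure D4:**
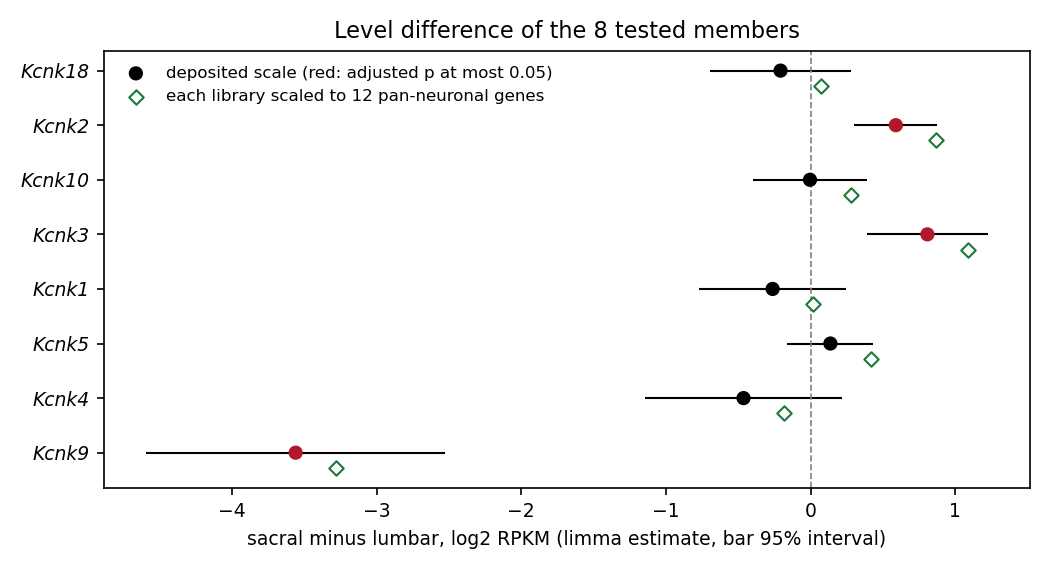
Sacral minus lumbar difference (log2 RPKM, horizontal axis) of the 8 tested members, with 95% intervals from limma and red points for an adjusted p of at most 0.05, and open green diamonds for the same estimate after each library was scaled to 12 pan-neuronal genes. Kcnk9, Kcnk2 and Kcnk3 lie clear of 0 on both scales, and the diamonds of Kcnk1, Kcnk10 and Kcnk18 lie on the other side of 0 from their points.

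Scaling each library to the 12 pan-neuronal genes raised the median difference of all genes tested by 0.28 log2, and the genes called then split into 666 higher and 127 lower, where the deposited scale gave 392 higher and 586 lower and an upper-quartile scaling 486 higher and 424 lower. On the pan-neuronal scale Kcnk9 (−3.28), Kcnk2 (0.87) and Kcnk3 (1.09) were called in the same direction as on the deposited scale. Kcnk1 (0.019), Kcnk10 (0.28) and Kcnk18 (0.073) changed sign and were not called on either scale.

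The THIK subfamily lay below the test level and was tested by the exact sign-flip permutation over 10 donors, without adjustment. Kcnk12 ran from −4.00 to −0.33 log2 RPKM in lumbar (5 to 51 reads) and from −5.48 to −0.60 in sacral libraries (1 to 35 reads). Its difference was −0.93 ± 1.5 (SD, n = 10, lower in 7 of 10, exact p = 0.0859). The lowest lumbar value was that of F8 and the lowest sacral value that of F7. Without F8 the difference was −1.18 (exact p = 0.0352), and without F7 it was −0.63 (exact p = 0.172). Kcnk13 ran from −4.72 to −1.12 in lumbar (2 to 41 reads) and from −7.31 to −2.11 in sacral libraries (0 to 28 reads), with a difference of −1.08 ± 1.84 (SD, n = 10, lower in 7 of 10, exact p = 0.102). Without M8, whose lumbar library was the lowest, it was −1.43 (exact p = 0.0234). Without F9, whose sacral library had 0 reads and holds the value set for 0.5 reads (−7.31), it was −0.67 (exact p = 0.203). Neither gene showed a difference larger than the spread between donors when all 10 were used.

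Of the other 4 K2P genes in the table, none reached the test level. Kcnk6, of the TWIK subfamily, had 13 to 132 reads per library and differed by 0.41 ± 1.04 (SD, n = 10, higher in 6 of 10, exact p = 0.236 in the sign-flip permutation). Kcnk7, Kcnk15 and Kcnk16 were at 0 reads in at least 10 of the 20 libraries.

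No sex difference was found in the members. In lumbar DRG 0 of 8 were called with limma, and 0 were at an unadjusted p under 0.05, where 0.33% of all genes tested were called. In sacral DRG 0 of 8 were called and 1 was at an unadjusted p under 0.05, where 1.01% of all genes were called. That gene was Kcnk10, lower in females by a log2 difference of −0.74 ± 0.33 (SE, limma adjusted p = 0.295). The interaction of level and sex called 0% of all genes and 0 of 8 members, 0 of them at an unadjusted p under 0.05. Within one sex, Kcnk2 differed between levels by 0.67 in males (limma adjusted p = 0.136) and 0.51 in females (limma adjusted p = 0.193), and Kcnk3 by 0.84 (limma adjusted p = 0.206) and 0.78 (limma adjusted p = 0.175). With 5 donors a sex, both kept their direction and neither passed.

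Genes that act on or beside these channels were taken from fixed lists. Over all genes tested, 2.7% were called higher and 4.03% lower in sacral DRG, with a median of −0.05 log2. Of 25 genes for known K2P partners and regulators (calcineurin subunits, 14-3-3 proteins, G proteins, MARK kinases and others), all were tested, 0 were higher and 1 was lower in sacral DRG, with a median of −0.15 log2. The 1 was Ywhaq, which encodes a 14-3-3 protein, at −0.36 ± 0.09 (SE, limma adjusted p = 0.0258). A single lower call among 25 genes is close to the share over all genes. Of the 4 calcineurin genes that serve TRESK, none was called. Of 15 inward rectifiers, the other main family of resting potassium channels, 7 were tested and 1 was higher, namely Kcnj2, at 0.58 ± 0.16 (SE, limma adjusted p = 0.0328), with a median of −0.23. Of the 10 genes for the NALCN sodium leak channel and the sodium pump, which work against the potassium leak, 0 were called and the median was −0.14.

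Cell-type genes are given as counts called by limma, beside the 2.7% of all genes called higher and the 4.03% called lower. The lists were chosen with earlier results of these data known. The study itself names Pvalb, Nefh, Trpv1, Tac1 and Trpm8 as different between levels in E18.5 DRG. A count above those shares is therefore a description and no independent support. Genes of large myelinated neurons were lower in 3 of 6 cases (Pvalb −1.33, Etv1 −0.86 and Nefh −0.86). Among nociceptor and thermoreceptor genes, Trpm8 (−2.16) and Tac1 (−0.81) were lower and Trpv1 (0.70) was higher, of 10 tested. Glial genes were lower in 4 of 10 cases and pan-neuronal genes in 1 of 12 (Snap25, −0.60). Higher were 3 of 6 genes of fibroblasts and meninges, 2 of 5 of endothelium and 1 of 3 of cartilage. No gene was called among 3 of macrophages, 5 of pericytes and smooth muscle, 6 of skeletal muscle and 1 of autonomic neurons. The summed level was lower in the sacral library in 10 of 10 donors for large myelinated neurons (88.2 to 171 RPKM lumbar, 70.6 to 107 RPKM sacral), for nociceptors and thermoreceptors (250.04 to 468 RPKM and 141 to 403 RPKM) and for glia (402 to 554 RPKM and 260.2 to 422 RPKM). It was higher in 9 of 10 donors for endothelium (24.4 to 49.4 RPKM lumbar, 34.8 to 62.3 RPKM sacral), for fibroblasts and meninges (190.4 to 438 RPKM and 264 to 590.3 RPKM) and for cartilage (4.55 to 15.7 RPKM and 6.12 to 27.6 RPKM). The part of these lists in the differences of Kcnk9, Kcnk2 and Kcnk3 was not tested.

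The genes with the most similar pattern to each called member over the 20 libraries are given by Pearson's r of log2 RPKM, as a description without a test. The libraries share donors, depth and level, and no account was taken of level. For Kcnk9 they were Cdh12 (r = 0.919), Layn (0.899) and Gm7271 (0.892). For Kcnk3 they were Htr3a, a serotonin receptor channel subunit (r = 0.948), Celf4 (0.925) and Gabrg3, a GABA-A receptor subunit (0.917). For Kcnk2 they were Cacna1e, a voltage-gated calcium channel subunit (r = 0.803), Cartpt (0.774) and Slc5a7, the choline transporter (0.748). Among the members, Kcnk10 and Kcnk18 (r = 0.867) and Kcnk12 and Kcnk18 (0.832) varied together most, and Kcnk2 and Kcnk9 had the lowest value (r = −0.502).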

How the data were processed

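Whole DRG of 10 embryos were measured in 20 libraries, grouped by the labels. The authors extracted RNA with a column kit, amplified it as whole-transcriptome cDNA, sequenced it on a HiSeq2500, aligned it to mm9 with Subread, counted uniquely mapped reads per Ensembl gene with featureCounts, and deposited log2 RPKM values after TMM scaling (edgeR 3.12.1) and voom (limma 3.26.9). Whether strand was used in counting is not given in the sources used here. The values share a median of 0.930 in every library, so they are relative to it.

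With exon lengths of the mm9 annotation GENCODE M1, 98.3% of the values were within 0.05 of a whole read. A blank was read as 0 reads and set to 0.5 reads. Depths are sums of these reads, and the interval on pooled reads covers counting error only. Intervals given with a limma difference come from its standard error. Amplified libraries without molecular identifiers do not count independent molecules.

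Tests used limma 3.58.1 (R 4.3.3, statmod 1.5.0) on 4 group means with donor as a block through duplicateCorrelation and a mean-variance trend. They were two-sided, with Benjamini-Hochberg adjustment over 14529 genes. These were the genes whose mean, taken on the log2 scale, reached 1 RPKM in at least 1 group. The threshold was 0.05. The scripts were checked on simulated data. Members below that level were tested singly by exact sign-flip permutation over donors (scipy 1.17.1). Pairing comes from the labels, which give both libraries the code of 1 embryo. The deviations of an embryo's libraries from their group means correlated by −0.17 (M8) to 0.68 (M5). No batch is given in the labels.

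All 10 members are named whatever their result, with the other K2P genes. For each called member the 3 tested genes with the highest Pearson r are named, and from the other lists genes past the threshold. The members and lists were chosen with earlier results of these data known. Alternatives covered the block, sample weights, filters, blanks, a pseudocount, scaling, voom on recovered reads, a mitochondrial rRNA covariate and each donor left out. Promoter windows are from RefSeq (GRCm38.p6).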

Additional observations from a re-analysis of the deposited data

Results flagged for a closer look

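Among the 5 sacral female libraries, Kcnk9 in donor F7 stood apart from the rest at −5.80 log2 RPKM, where the others lay between −3.36 and −2.41. The gap was 0.72 of the whole range of the group, above Dixon's 95% critical value for 5 samples, a limit that chance passes in about 1 in 20 groups. The rule was applied to the groups of all 14 K2P genes, leaving out groups with more than 1 library at 0 reads. The library had 0 Kcnk9 reads, so its value is the one set for 0.5 reads and not a measured level. The size of the gap rests on that setting, so passing the critical value does not show an outlying level. It also had the fewest reads of all 20 libraries and the lowest pan-neuronal sum (414 RPKM).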

How the results depend on the processing

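Kcnk9 passed the threshold in 22 of 22 alternatives, at −3.97 to −1.55 log2 (limma adjusted p 2.66e-05 to 0.0079), the smallest size being that on log2(RPKM + 0.5). It was not tested where a mean of 1 RPKM was required in all groups. Kcnk2 and Kcnk3 each passed in 19 of 23 alternatives and kept their direction in all 23, Kcnk2 at 0.48 to 0.87 and Kcnk3 at 0.63 to 1.09. Without the replicate block, 1 of the 3 members called remained past the threshold (Kcnk9), and over all genes 154 were called instead of 978. With sample weights 2998 genes were called, with no filter on low values 507, and on leaving out single donors 401 (F10) to 1594 (F8). Leaving out a donor gave 1 to 3 members called, with 1 without F10 and 1 without M5. The added fit without M5, F7 and F8, chosen after seeing the data because their lumbar libraries had the highest mitochondrial rRNA share, called all 3, at −3.70 (Kcnk9), 0.65 (Kcnk2) and 0.79 (Kcnk3).

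Uncalled members changed sign as follows, and the cause was not tested. Scaled to the pan-neuronal list, Kcnk1 was 0.019, Kcnk18 0.073 and Kcnk10 0.28. Kcnk10, near 0 throughout, was 0.0042 on log2(RPKM + 0.5), 0.058 under upper-quartile scaling, 0.0033 with voom on recovered reads, 0.016 with the mitochondrial rRNA covariate, and −0.14 to 0.093 when single donors were left out. When single donors were left out, Kcnk1 ran from −0.49 to −0.087, Kcnk4 from −0.75 to −0.15, Kcnk5 from 0.030 to 0.27 and Kcnk18 from −0.37 to −0.073, and none was called. Below the test level, leaving out single donors gave −1.18 to −0.63 for Kcnk12 (exact permutation p 0.0352 to 0.172) and −1.43 to −0.67 for Kcnk13 (exact permutation p 0.0234 to 0.203). No sex or interaction call appeared under the 13 alternatives run for each. Depth limits Kcnk9 in sacral libraries, Kcnk12 and Kcnk13, which had 0 to 51 reads per library.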
